A study of Mus musculus with 2 samples.

Results

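The replication-dependent histone genes were taken as all protein-coding genes of the GENCODE M21 annotation whose name begins with Hist1h, Hist2h, Hist3h or Hist4h, which gave 67 genes of 22028 protein-coding genes and of 55536 genes in all. No measured value entered that choice. By name the set held 6 genes for the linker histone H1, 18 for H2A, 18 for H2B, 12 for H3 and 13 for H4. The Hist1 cluster on chromosome 13 held 54 of them, Hist2 on chromosome 3 held 10, Hist3 on chromosome 11 held 2 and Hist4 on chromosome 6 held 1. Hist1h2aj, Hist1h2al and Hist3h2bb-ps carry the same kind of name but are annotated as pseudogenes and were not counted as members.

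Both libraries were made from total RNA of the heart of adult female mice aged 8 to 10 months, from a cross of 5xFAD with CAST, with 300 ng of RNA and ERCC spike-ins in each. 5xFAD mice carry mutant human transgenes under the Thy1 promoter, which is active mainly in neurons, and CAST is an inbred strain derived from wild mice. The libraries formed 1 group of 2 replicates, and no group without the transgenes and no other genotype, age or treatment was there to set beside it. The labels numbered the libraries as biological replicates 1 and 2, each with its own biosample, but gave both the same donor identifier. Whether they come from 1 or 2 animals is thus not clear, and the spread between them may be technical.

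Replication-dependent histone genes supply the proteins that package newly copied DNA, and they are transcribed mainly during S phase. A nucleosome wraps DNA around pairs of H2A, H2B, H3 and H4, and H1 binds the linker between nucleosomes. Their transcripts usually have no introns and no poly(A) tail. They end just after a conserved stem-loop that is bound by the stem-loop binding protein Slbp and recognised by a processing machinery of its own. Adult heart muscle cells rarely divide, so in this tissue S phase is known mainly from other cells. Libraries of total RNA, unlike those selected on a poly(A) tail, can hold such transcripts.

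The stem-loop is what sets these messages apart from other mRNAs, and it is shown here for the most abundant gene with each of the 6 versions found. The pattern was GG, any 3 bases, TTTT, any base, A, any 3 bases and CC. It was searched on the sense strand over whole annotated transcripts, and the 6 bases at each end had to be complementary. Capitals mark the 16 bases of the stem-loop, and 5 bases on either side are in lower case, as DNA letters of the GENCODE M21 transcripts.
Hist1h1c: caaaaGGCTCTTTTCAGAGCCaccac
Hist1h4h: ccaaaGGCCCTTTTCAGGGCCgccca
Hist1h3e: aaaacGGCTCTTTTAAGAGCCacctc
Hist1h4i: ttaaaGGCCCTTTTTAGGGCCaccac
Hist1h4b: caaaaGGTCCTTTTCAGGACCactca
Hist2h2ac: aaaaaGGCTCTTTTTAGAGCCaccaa
On GRCm38 the capitals lie at chr13:23739512-23739527 on the plus strand for Hist1h1c, chr13:23531458-23531473 on the plus strand for Hist1h4h and chr13:23561903-23561918 on the minus strand for Hist1h3e. They lie at chr13:22040966-22040981 on the minus strand for Hist1h4i, chr13:23757366-23757381 on the plus strand for Hist1h4b and chr3:96220418-96220433 on the minus strand for Hist2h2ac. All 6 stretches are in the 3′ UTR.

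The version shown for Hist1h1c was annotated in 26 genes of the H1, H2A, H2B and H3 classes and in no H4 gene. The version of Hist1h4h was found in 7 genes, which were all H4 genes, and the version of Hist1h3e in 6 genes of the H1, H2B and H3 classes. Hist1h4i shared its version with Hist2h4, Hist1h4b shared its version with Hist1h4j, and Hist2h2ac was the 1 gene with the remaining version. In total 44 of the 67 members (65.7%) had a match, against 11 of 21799 other protein-coding genes (0.0505%). In those other genes the match could lie anywhere in a transcript. Among those 11 were H2afx, whose product marks DNA breaks, and Trim17, whose annotated transcripts overlap Hist3h2a. The match began 21 to 58 bases after the stop codon, with a median of 31. Of the 23 members without a match, 17 had main transcripts that stopped within 2 bases of the stop codon. For 15 of these no stretch after the coding sequence in which it could lie was annotated. Hist1h2bq and Hist1h2br had other, longer transcripts that held no match either. The other 6 were Hist1h2bc, Hist2h3b, Hist2h2be, Hist1h4a, Hist1h1a and Hist1h3g.

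Replicate 1 held 45411752 and replicate 2 held 40655660 expected counts on endogenous genes, and spike-ins took 0.412% and 0.357% of all counts. Heart muscle markers stood at the levels of that tissue, with all 5 detected and a summed level of 21906 and 24304 TPM, led by Myl2, Myh6 and Tnnt2. TPM is a relative abundance corrected for transcript length, given here over endogenous genes, and detected means at least 1 TPM in both libraries. All 4 markers of endothelium (led by Egfl7, Pecam1 and Cdh5), of fibroblasts (Dcn, Col1a1, Pdgfra), of smooth muscle and pericytes (Abcc9, Rgs5, Acta2) and of macrophages (Lyz2, C1qa, Csf1r) were detected. None of the 6 lymphocyte markers was, with summed levels of 1.52 and 1.27 TPM, and Cd79b, Cd3e and Cd79a were the highest. Of the 5 thymocyte markers none was detected and Rag2, Dntt and Ptcra were at 0 counts, while Cd8b1 and Rag1 had at most 4. Of the 5 testis germ cell markers none was detected and Prm1, Prm2 and Tnp1 were at 0. Red cell transcripts were present, with Hbb-bs at 793 and 951 TPM, Hbb-bt at 88.1 and 101 and Alas2 at 10.0 and 12.7, whereas Klf1 had 1 and 2 counts. Of the 4 adipocyte markers Cfd, Plin1 and Adipoq were detected.

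The histone genes as a set were a small part of the heart transcriptome. Their summed level was 430.3 TPM in replicate 1 and 449 TPM in replicate 2, or 439 ± 13.0 (SD, n = 2), which is 0.0439% of the endogenous TPM. In expected counts they held 12732 and 11129.7, or 0.0277% of the endogenous total. In whole tissue, fewer cells of a type and less RNA per cell cannot be told apart. Of the 67 members 35 were detected (52.2%), beside 49.0% of all protein-coding genes. Another 21 lay below 1 TPM in both libraries, and 11 passed it in 1 library only, 7 of them in replicate 2 and 4 in replicate 1. Hist1h2aa, Hist1h2ba and Hist2h3c1 were at 0 counts in both. A count of 0 allows up to 3 counts in each library where a gene's reads can be told from those of others. That does not hold for Hist2h3c1, whose sequence is shared in full. The median member stood at 1.79 TPM against 1.01 TPM for protein-coding genes, and the median detected member at 4.56 TPM against 7.80 TPM. Members nearest the threshold were Hist1h4a (1.32 and 2.15 TPM) and Hist2h3c2 (1.34 and 1.75) inside it, and Hist1h2ap (0.996 and 1.04) and Hist1h4j (1.20 and 0.996) outside it.

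Few genes carried most of the signal. The 3 most abundant members held 48.3% of the members' TPM, the first 10 held 72.1% and the first 15 held 80.8%. Hist1h4h (chr13:23531050-23531519) led at 81.9 and 84.3 TPM, and its mean lay at percentile 97.3 of protein-coding genes. Hist1h1c (chr13:23738808-23740367) followed at 67.0 and 65.7 TPM and Hist2h2aa2 (chr3:96239749-96240276) at 65.0 and 60.8 TPM. In each of these 3 genes the gap between the replicates was small beside the gap to the fourth. The fourth, Hist1h2bc (chr13:23684199-23692908), had 24.7 and 24.5 TPM, which is less than the third by over 2-fold in both libraries. Levels here are those of the gene tables, which rest on aligned reads. A second set, the direct tables described further on, moved several genes, and is given beside the results it changes.

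**Figure D1:**
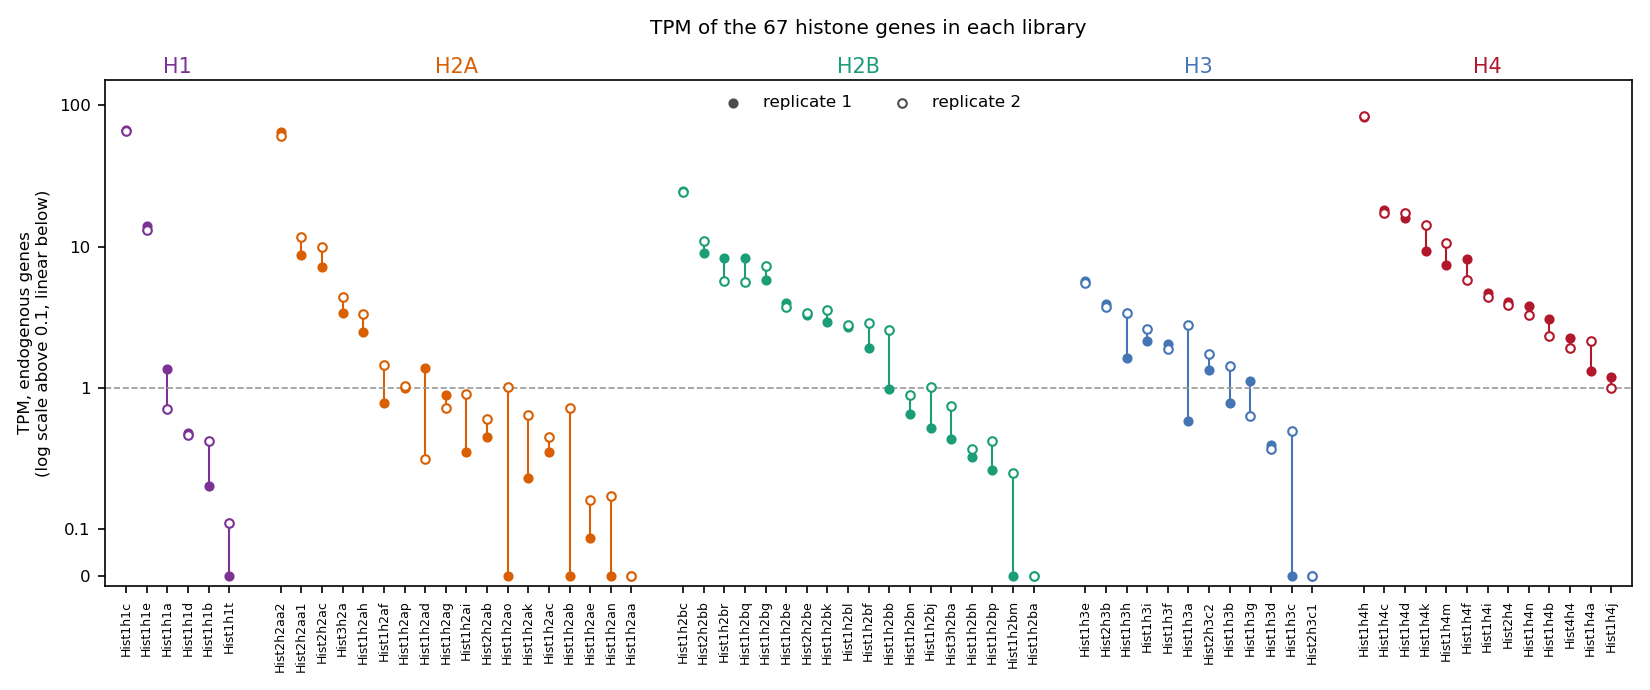
TPM of each of the 67 histone genes in replicate 1 (filled) and replicate 2 (open), by class and ordered by mean within a class; the scale is logarithmic above 0.1 and linear below, and the dashed line is the detection threshold of 1 TPM. Each class is led by 1 or 2 genes, and 12 of 13 H4 genes but 5 of 18 H2A genes lie above the line in both libraries.

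The H4 genes were the class with the highest summed level and the one in which most genes were detected. Together they stood at 161 and 169 TPM, or 165 ± 5.19 (SD, n = 2), which was 37.5% of the members' TPM. All 13 encode 1 identical protein of 103 residues, which forms the core of the nucleosome with H3. Of the 13 genes 12 were detected, and the remaining gene, Hist1h4j, was also the lowest of the class. Hist1h4h alone supplied 50.4% of the class. Hist1h4c (18.0 and 17.4 TPM) and Hist1h4d (15.9 and 17.3 TPM) came next, with Hist1h4c the higher in both libraries. Hist1h4k had 9.38 and 14.3 TPM, Hist1h4m 7.38 and 10.6, and Hist1h4f 8.21 and 5.79. The first pair was higher in replicate 2 and Hist1h4f in replicate 1, so the order among these 3 genes was not the same in both libraries. The places below Hist1h4h also depended on the table, since the direct tables gave Hist1h4c 11.5 and 11.8 TPM and Hist1h4k 10.8 and 27.8. The other 7 H4 genes had means from 1.10 to 4.56 TPM.

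In the H1 class, whose members bind linker DNA and help compact chromatin, Hist1h1c and Hist1h1e were detected and the other 4 genes were not. The class summed to 83.0 and 80.4 TPM, or 81.7 ± 1.83 (SD, n = 2), of which Hist1h1c held 81.2%. Hist1h1e stood at 14.0 and 13.0 TPM, and these 2 genes did not overlap in level. The H1 genes made 18.6% of the members' TPM but 38.0% of their expected counts, which are not divided by length. The annotated transcripts of Hist1h1c and Hist1h1e are 1560 and 1930 bases long, against 470 for Hist1h4h. By counts Hist1h1c was the first of all 67 members, with 3791 and 3201. Hist1h1a reached 1.37 and 0.704 TPM (34 and 15 counts). Hist1h1d had 137 and 113 counts but only 0.483 and 0.463 TPM, because its annotated transcript spans 7425 bases. Hist1h1b, with 5 and 9 counts, and the testis-specific linker histone gene Hist1h1t, with 0 and 3 counts, were near the limit of detection.

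**Figure D2:**
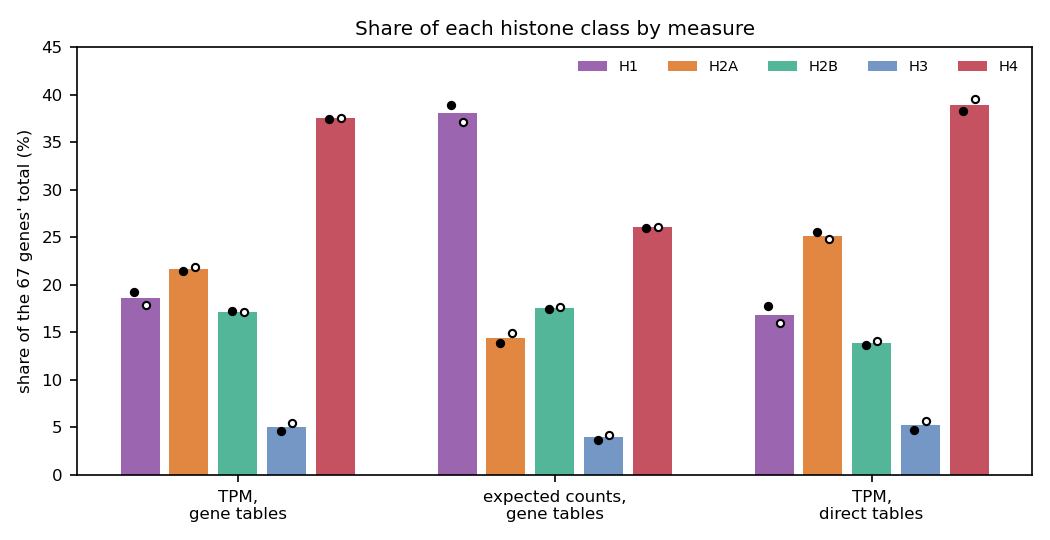
Share of the 67 genes' total that each histone class held, in percent, by TPM of the gene tables, by expected counts and by TPM of the direct tables; bars are means of both libraries, filled points replicate 1 and open points replicate 2. H4 leads by TPM in both kinds of table and H1 leads by counts.

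For H2A, which pairs with H2B, few genes were detected. The 18 genes summed to 92.3 and 98.3 TPM, or 95.3 ± 4.23 (SD, n = 2), and 5 of them were detected. Hist2h2aa2 held 66.0% of the class. Hist2h2aa1, an almost identical copy that encodes the same protein, had 8.69 and 11.6 TPM, and the pair together gave 73.7 and 72.4 TPM. Hist2h2ac had 7.21 and 9.99 TPM, Hist3h2a 3.39 and 4.40, and Hist1h2ah 2.48 and 3.31. A further H2A protein is encoded by 9 Hist1 genes, and none of these 9 was detected. Their levels summed to 4.06 and 5.50 TPM, less than Hist2h2ac alone gave in either library. In the direct tables these 9 genes summed to 7.04 and 10.0 TPM, and Hist1h2ai and Hist1h2ad were detected, while Hist1h2ah was not. The oocyte and testis gene Hist1h2aa was at 0.

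Transcripts of the H2B class were spread more evenly. The 18 genes summed to 74.0 and 76.7 TPM, or 75.4 ± 1.92 (SD, n = 2), with 10 detected. Hist1h2bc held 32.6% of the class, and Hist2h2bb followed at 9.05 and 10.9 TPM. Hist1h2br (8.24 and 5.74) and Hist1h2bq (8.28 and 5.64) came next but are near-copies of each other, and their levels are taken up with the tables. Hist1h2bc, Hist1h2bg and Hist1h2be encode 1 identical protein, and this group gave 34.5 and 35.5 TPM. A second protein, from 6 genes that include Hist1h2bq and Hist1h2br, gave 22.3 and 19.0 TPM, but 6.59 and 10.1 TPM in the direct tables. In all, the class encodes 11 different proteins. Hist1h2ba, the testis-specific H2B gene, was at 0.

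The H3 class had the lowest sum, at 19.7 and 24.6 TPM, or 22.1 ± 3.45 (SD, n = 2), which was 5.03% of the members' TPM. It had 6 of 12 genes detected and was led by Hist1h3e, at 5.73 and 5.53 TPM. That lead held in the gene tables alone, since in the direct tables Hist2h3b (4.77 and 4.59 TPM) was above Hist1h3e (3.78 and 4.37) in both libraries. Its 12 genes encode 2 proteins that differ at 1 of 136 residues. The 8 genes of the first protein, led by Hist1h3e, summed to 14.2 and 15.2 TPM. The 4 genes of the second, Hist1h3h, Hist1h3i, Hist1h3a and Hist1h3g, summed to 5.48 and 9.40 TPM. The libraries differed more in the second group, in which Hist1h3a had 0.584 and 2.77 TPM and Hist1h3h 1.63 and 3.41. Hist2h3c1 was at 0 counts in both libraries, and each of its 31-base words also occurs in Gm20634, which overlaps it on the same strand. Gm20634 was given 129 and 142 counts, so the 0 of Hist2h3c1 sets no upper limit on its transcripts.

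The second stretch of the Hist1 cluster held most of the signal. Hist1 as a whole gave 321 and 335 TPM, 74.6% of the members' TPM, with 25 of 54 genes detected. A gap of 1487 kb without members divides it, a division made after seeing the annotation. The 23 genes before the gap, from chr13:21715763-22043676, summed to 59.0 and 68.1 TPM, with 11 detected. The 31 genes after it, from chr13:23531050-23934851, summed to 262 and 267 TPM, with 14 detected. Hist1h4h, Hist1h1c, Hist1h2bc, Hist1h4c, Hist1h4d and Hist1h1e are all in the second stretch. The most abundant gene of the first stretch was Hist1h4k. Hist2 gave 103 and 107 TPM from 10 genes within 50.3 kb, with 8 detected, and Hist2h2aa2 alone held 60.0% of it. Of the 2 Hist3 members, Hist3h2a stood at 3.39 and 4.40 TPM and Hist3h2ba at 0.433 and 0.744. Hist4h4, the single Hist4 gene, had 2.26 and 1.93 TPM.

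**Figure D3:**
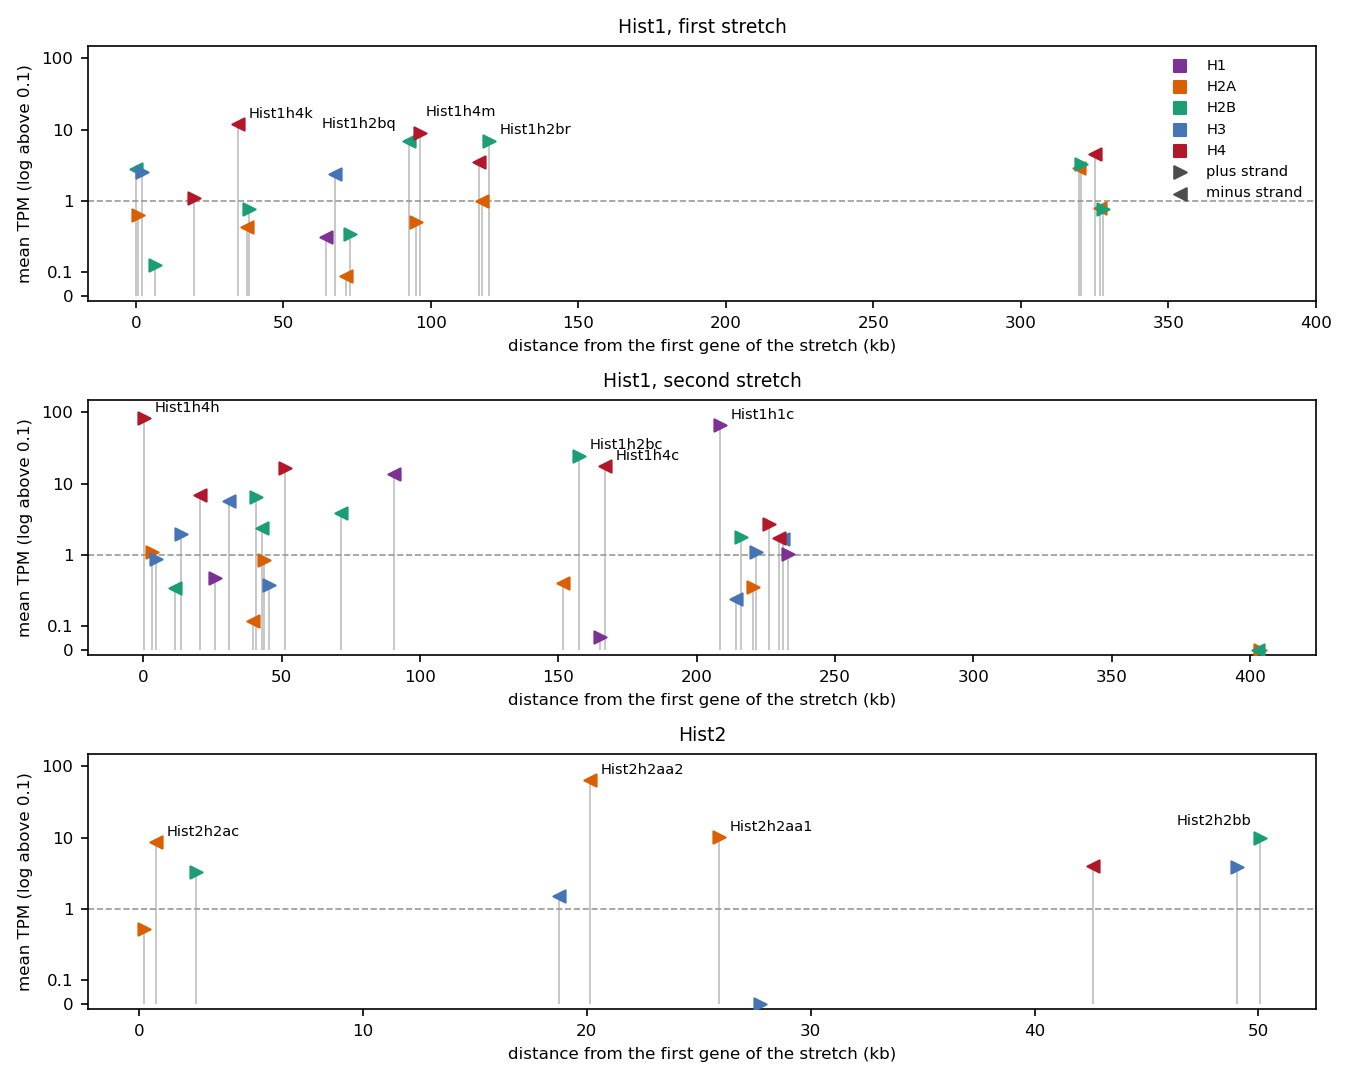
Mean TPM of both libraries for each gene against the distance of its midpoint from the first gene, in kb, for both stretches of Hist1 and for Hist2; the scale is logarithmic above 0.1, triangles point in the direction of transcription and the dashed line is 1 TPM. High and low genes stand side by side along each stretch, and the 4 most abundant genes of each are named.

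Neighbours transcribed away from each other were often at different levels. In 13 pairs of members the annotated starts lay back to back within 1000 bases, and 12 of these pairs joined an H2A to an H2B gene across 175 to 305 bases. In 9 of the 12 at least 1 partner had a mean of 10 expected counts, a minimum set after the values were seen. The H2B gene was the higher in both libraries in 7 of these 9 pairs and the H2A gene in 1, Hist2h2ac with Hist2h2be. In the direct tables those counts were 5 and 2. There Hist1h2ai (4.02 and 3.96 TPM) was above Hist1h2bl (1.46 and 1.21), which reversed the pair, and Hist1h2bq and Hist1h2br were each above the partner in 1 library only. Hist1h2bc, Hist1h2bg, Hist1h2bf and Hist1h2bk were above their H2A partners in both kinds of table. Both partners were detected in 2 pairs in the gene tables, Hist2h2ac with Hist2h2be and Hist1h2ah with Hist1h2bk (2.92 and 3.58 TPM), of which the second was not in the direct ones. The largest difference in TPM was between Hist1h2bc, at 24.7 and 24.5 TPM, and Hist1h2ac, 250 bases away, at 0.352 and 0.453 TPM. In counts Hist1h2bc had 1009.9 and 863 and Hist1h2ac 32.1 and 36.2, so the order was the same. For Hist2h2ac with Hist2h2be the order was reversed in counts, at means of 129 and 302.5. Their annotated transcripts are 520 and 2620 bases long, so the lead of Hist2h2ac in TPM rests on division by length.

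The promoter that Hist1h2ac shares with Hist1h2bc and those of 2 H4 genes are shown because they stand for this contrast and for the range of promoter letters among abundant members. Each is a RefSeq window on GRCm38.p6 from 250 bases before to 50 bases after the start, 5′ to 3′ in the sense of the named gene. Capitals mark TATAAA and CCAAT on either strand, so that ATTGG is CCAAT read on the other strand.
Hist1h2ac, chr13:23683910-23684209, minus strand: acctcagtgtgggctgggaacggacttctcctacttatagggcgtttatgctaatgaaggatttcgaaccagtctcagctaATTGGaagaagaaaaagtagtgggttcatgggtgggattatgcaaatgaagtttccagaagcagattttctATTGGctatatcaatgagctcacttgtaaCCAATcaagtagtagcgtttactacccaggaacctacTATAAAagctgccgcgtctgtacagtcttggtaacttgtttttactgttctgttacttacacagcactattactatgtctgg
Hist1h4d, chr13:23581318-23581617, plus strand: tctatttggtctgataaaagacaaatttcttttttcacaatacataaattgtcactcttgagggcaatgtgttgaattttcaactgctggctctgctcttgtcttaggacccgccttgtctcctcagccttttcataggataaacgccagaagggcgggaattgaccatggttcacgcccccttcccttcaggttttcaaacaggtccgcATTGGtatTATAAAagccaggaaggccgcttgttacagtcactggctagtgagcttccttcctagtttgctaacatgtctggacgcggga
Hist1h4h, chr13:23530794-23531093, plus strand: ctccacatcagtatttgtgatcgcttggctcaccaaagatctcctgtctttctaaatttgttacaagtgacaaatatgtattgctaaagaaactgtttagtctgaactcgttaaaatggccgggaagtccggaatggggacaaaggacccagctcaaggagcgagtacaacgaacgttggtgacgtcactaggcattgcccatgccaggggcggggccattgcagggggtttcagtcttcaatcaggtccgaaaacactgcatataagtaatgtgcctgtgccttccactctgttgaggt
Hist1h4h, the most abundant member, had no match to either motif in its window, Hist1h4d had 1 of each, and Hist1h2ac had 1 TATAAA and 3 CCAAT.

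A window was matched for 61 of the 67 members. TATAAA, the core of the TATA box, was in 34 of the 61 (55.7%), against 13.6% of 32851 windows of the same length for all genes. CCAAT was in 52 (85.2%), against 37.4%, and both were in 28 (45.9%), against 5.31%. Both were searched on both strands, and matches to TATAAA and CCAAT can share at most 1 base. The 61 windows were not all separate promoters. Windows of back-to-back partners such as Hist1h2ag and Hist1h2bj overlap, so 1 match can count for both genes. The windows of Hist1h2bq and Hist1h2br hold the same letters. Among the 31 detected members with a window, CCAAT was in 23 and TATAAA in 16. Of the 30 others, CCAAT was in 29 and TATAAA in 18. A match describes letters in a window and says nothing of binding.

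Gene models that ran far past the stem-loop gathered more counts. A split at 100 bases, chosen after the models were seen, put 22 members with a stem-loop in each group. The 22 whose models ended within 100 bases, 3 to 74 bases after it, had a median of 25.2 expected counts and 1.73 TPM, with 10 detected. The 22 whose models ran on, by 151 to 4884 bases, had a median of 113 expected counts and 2.02 TPM, with 13 detected. Their median annotated lengths were 481 and 1255 bases. Hist1h4h and Hist2h2aa2, whose models end 46 and 35 bases after the loop, were in the first group, and Hist1h1c, with 840 bases, in the second. Where within a transcript the reads fell was not analysed here, so ends at the loop and ends further on cannot be told apart.

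The libraries were close to each other for the well covered members. Ratios are replicate 2 over replicate 1 after TMM scaling of all endogenous genes, and with 1 library against 1 there is no test. Of 27 members with a mean of at least 50 expected counts, 0 were 2-fold apart, and 0.568% of the 12492 genes with that mean were. Hist1h1c had a ratio of 0.936 with a counting interval of 0.893 to 0.982, and Hist1h4h a ratio of 0.983 with 0.903 to 1.07. These intervals cover counting error only, at 95%. Hist1h4k was the highest of the 27, at 1.45 (1.07 to 1.98), and Hist1h2bq the lowest, at 0.644 (0.452 to 0.910). The single-exon transcripts of Hist1h2bq and its near-copy Hist1h2br were given the same counts, 89.7 and 52.7 each. The interval of Hist1h2bq does not cover how such shared reads were split. Over 50 members with a mean of at least 10 counts the median log2 ratio was -0.05, against -0.01 for all 15785 such genes. With a mean of at least 50 counts the medians were -0.11 for the 27 members and -0.01 for all genes. Of these members 9 were higher in replicate 2 (33.3%), beside 48.8% of all genes. Scaling to the spike-ins moved these medians to 0.11 and 0.21, and 23 of the 27 members were then higher in replicate 2, as were most of all genes. The sign of the members' median thus depends on the scaling. A scaling moves all genes by nearly the same amount, so the gap between the medians could not change with it. At a mean of 10 to 50 counts the order after TMM scaling was the other way, with 0.19 for 23 members and -0.05 for all such genes. Of the 50 members, 16 had a counting interval that left out 1 (32.0%), beside 26.9% of all genes.

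Some thinly covered members lay further apart. Among the 23 members with a mean of 10 to 50 counts, 3 were 2-fold apart (13.0%), beside 11.1% of all 3293 such genes, so their share was near that of genes of like depth. Hist1h3a went from 9.75 to 40.1 counts, a ratio of 4.44 (2.18 to 9.95), and Hist1h2bb from 15.5 to 35.2 counts, a ratio of 2.43 (1.31 to 4.69). In the other direction, Hist1h2ad had 25.4 and 4.90 counts, a ratio of 0.222 (0.0663 to 0.590). In the direct tables Hist1h3a (10.4 and 39.6 counts) and Hist1h2bb (15.95 and 33.1) differed in the same way, but Hist1h2ad had 18.8 and 21.1. Hist1h3a, Hist1h2bb and Hist1h2ad encode an H3, an H2B and an H2A. All 3 lie in the second Hist1 stretch, as do 25 of the 39 Hist1 members with a mean of at least 10 counts.

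Genes of proliferation showed no shift in their median, with single genes moving both ways. Several markers of other cells were higher in replicate 2. Of 23 genes of the S phase list with at least 10 counts, 14 were higher in replicate 2, with a median log2 ratio of 0.03. Over all 15785 genes with that minimum 48.5% were higher there, which stands beside each count given here. In the S phase list Mki67 (log2 ratio 0.83) and Top2a (0.99) were higher and E2f2 (-0.47) and Pole (-0.39) lower, all named after the values were seen. None of that list with at least 50 counts was 2-fold apart. All 3 adipocyte markers with enough counts were higher in replicate 2, with a median log2 ratio of 0.91 and summed levels of 17.9 and 27.3 TPM. All 4 macrophage markers (median 0.15), 3 of 3 red cell genes (0.17), 3 of 4 smooth muscle and pericyte markers (0.26) and 3 of 4 fibroblast markers (0.06) were higher there too. Acta2, a smooth muscle actin, had 18.1 and 36.0 TPM. Of the endothelial markers 1 of 4 and of the heart muscle markers 2 of 5 were higher. The part of these cells in the histone differences was not tested.

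**Figure D4:**
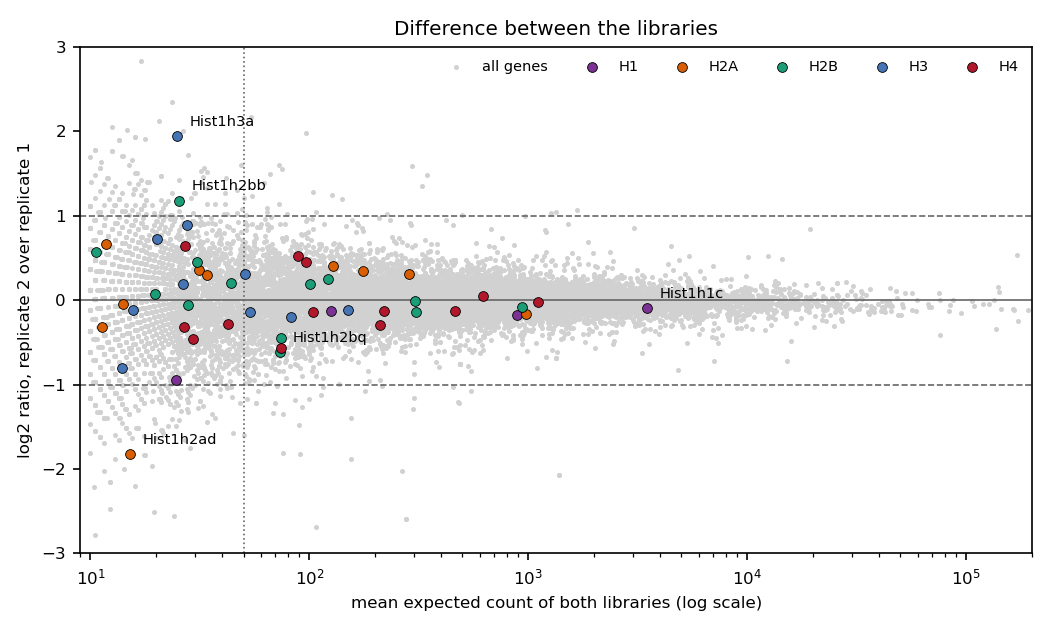
Log2 ratio of replicate 2 over replicate 1 against the mean expected count on a log axis, for the 50 histone genes with a mean of at least 10 (coloured by class) and all 15785 such genes (grey, 63 of them outside the axes); dashed lines mark 2-fold and the dotted line a mean count of 50. Right of the dotted line no histone gene lies beyond 2-fold, and to its left Hist1h3a, Hist1h2bb and Hist1h2ad do.

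The members' values depended on how reads were assigned. Besides the gene table, which rests on aligned reads, each library came with a transcript table computed by the authors from the reads directly, here summed per gene. Of 40 members that were detected in either kind of table, 7 were 2-fold apart in the same direction in both libraries, beside 0.831% of 10946 protein-coding genes. The gene table was the higher for 3 of the 7 (0.283% of all genes) and the direct table for 4 (0.548%). The median absolute log2 difference was 0.31 for members and 0.11 for protein-coding genes. Of 218 other protein-coding genes with an effective length under 500 bases it was 0.25. With the sign kept, gene over direct, the median was 0.18 for members, with 25 of 40 higher in the gene table. It was -0.15 for the 218 short genes, with 63 higher in the gene table, and 0.04 for protein-coding genes. Both tables come from the same reads, so a difference between them is one of computation.

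Hist1h2bq and Hist1h2br differed most. The gene tables gave 8.28 and 5.64 TPM for Hist1h2bq and 8.24 and 5.74 for Hist1h2br, and the direct tables gave 0.431 and 0.303 for the first and 0.391 and 0.220 for the second. Of the 31-base words of Hist1h2bq 98.3% also occur in Hist1h2br. The credibility bounds deposited with the TPM of Hist1h2br ran from 0.0541 to 14.9 in replicate 1, so its level is uncertain even within the gene tables. Hist1h2ah was also higher in the gene tables, at 2.48 and 3.31 TPM against 0.797 and 0. Hist1h3h (1.63 and 3.41 against 0 and 1.63) and Hist1h4n (3.80 and 3.26 against 2.92 and 0.896) followed, without reaching 2-fold in both libraries.

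The direct tables were the higher for Hist1h2ai, at 4.02 and 3.96 TPM against 0.352 and 0.905, and for Hist1h2bp, at 1.47 and 2.13 against 0.262 and 0.422. They were also higher for Hist1h3b (2.63 and 3.79 against 0.785 and 1.42) and for Hist2h2aa1 (19.5 and 30.0 against 8.69 and 11.6). Hist1h2bf, at 3.69 and 6.41 against 1.91 and 2.87, was the fifth in this direction. The sum of Hist2h2aa1 and Hist2h2aa2 moved far less, from 73.7 and 72.4 TPM to 80.7 and 80.6. The sum of Hist1h2bq and Hist1h2br did not hold, at 16.5 and 11.4 TPM against 0.822 and 0.523.

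**Figure D5:**
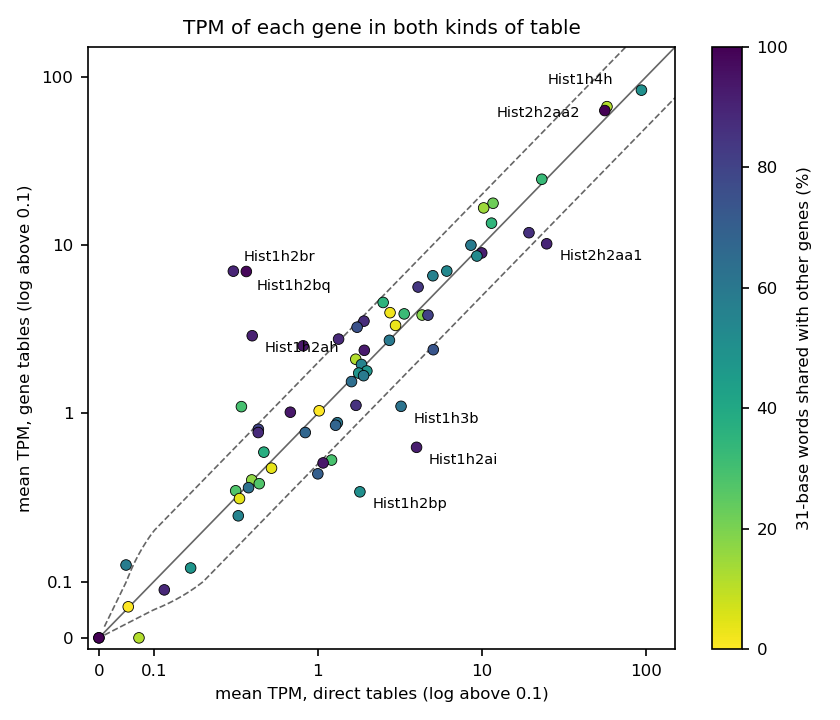
Mean TPM of both libraries in the gene tables against that in the direct tables for each of the 67 genes, with both scales logarithmic above 0.1; the solid line is equality, the dashed lines 2-fold, and the colour is the share of a gene's 31-base words found in other genes. The 4 most abundant genes lie near equality, while Hist1h2bq and Hist1h2br lie far above it and Hist2h2aa1, Hist1h2ai and Hist1h2bp below it.

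All 7 of these members share at least 50% of their 31-base words with other genes, a threshold set after the shares were seen. They were 7 of 27 compared members with that much sharing, and 0 of 13 with less were 2-fold apart. The credibility bounds spanned at least 2-fold in both libraries for 32 of 41 members with at least 50% sharing and for 13 of 26 with less. Among detected members those counts were 14 of 23 and 1 of 12. Hist1h1c, with 11.4% of its words shared, and Hist1h1e, with 34.7%, share little beside Hist2h2aa2, all of whose words occur elsewhere. The pseudogene Hist1h2al was given 12.7 and 16.04 TPM in the gene tables and 0 in the direct ones. It holds 49.6% of the words of Hist2h2aa2.

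Division by effective length differed as well. The gene tables used the transcript length less 100 bases for Hist1h4k, 212 of 312, and the direct tables used 102. For Hist1h4h the effective lengths were 370 and 252 of 470 bases, and for Hist4h4, with 2863 bases, 2763 and 2645. The shortest gene models are therefore the ones whose TPM depends most on this step. Hist1h4k had 9.38 and 14.3 TPM in the gene tables and 10.8 and 27.8 in the direct ones.

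Of the 67 members 62 have a single annotated transcript, and of the other 5 only Hist1h2be had a second transcript with at least 10% of its TPM in both libraries. Its unspliced transcript Hist1h2be-203 held 53.0% and 42.9% of its TPM in the alignment-based transcript tables. Hist1h2be-201 held 47.0% and 5.31%, and Hist1h2be-202, a spliced form 26 bases shorter, held 0% and 51.8%. In the direct tables Hist1h2be-202 held 52.2% and 63.4%, and Hist1h2be-203 held 47.8% and 36.6%. The assignment between both spliced forms thus switched between libraries in one kind of table and not in the other. Hist1h2be overlaps Hist1h1e, and Hist2h2bb overlaps Gm42743, on the same strand. Hist2h2aa1 overlaps Gm20634, and Hist3h2a overlaps Trim17, on the same strand as well. Reads from the shared stretch fit both genes of such a pair. Hist2h2aa2 and Hist2h2aa1 have the antisense genes Gm20632 and Gm20633 across them, and whether counting used the strand was not given in the sources used here.

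The histone genes listed as replication-independent were at higher levels per gene. Several of them are made throughout the cell cycle and replace the others in cells that have stopped dividing. The list is mixed, and also holds Cenpa, H1foo (0 counts in both libraries) and H2afx, which has the stem-loop match. Of 13 genes 11 were detected, with a median of 15.6 TPM against 1.79 for the 67 members, and they summed to 292 and 304 TPM. H3f3a stood at 117 and 129 TPM and H3f3b at 45.5 and 41.7, and both encode the replacement variant of H3. Each was above the sum of all 12 replication-dependent H3 genes in both libraries. H1f0, the linker histone of differentiated cells, had 29.9 and 29.6 TPM, between Hist1h1c and Hist1h1e. These 3 genes kept that order in both libraries.

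Of 22 genes found from a list drawn up for the processing and decay of histone mRNA 20 were detected, with a median of 6.20 TPM. Symplk, Zcchc11 and Zcchc6 were not found under those symbols. Mbd3 (30.0 and 32.8 TPM), Srrt (20.2 and 18.2) and Wdr33 (17.3 and 17.9) were the highest of that list. Membership rests on the list alone, and a role of Mbd3 or Wdr33 in histone mRNA was not established here. Slbp, named for its role and not for its level, had 3.79 and 4.38 TPM. Of 23 histone chaperones and import factors 20 were detected, with a median of 13.5 TPM, led by Nap1l4 (55.4 and 63.3), Npm1 (56.4 and 55.5) and Rbbp7 (48.4 and 52.5). The S phase list was the lowest of the 4, with 11 of 30 genes detected and a median of 0.863 TPM. Pcna, the sliding clamp of DNA polymerase, had 13.8 and 14.4 TPM, Rrm1, a subunit of ribonucleotide reductase, 4.22 and 4.02, and the helicase subunit Mcm7 3.70 and 3.18. In none of the 4 lists was a gene with a mean of at least 50 counts 2-fold apart between the libraries, beside 0.568% of all genes.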

How the data were processed

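Each library came with 3 tables on mm10 and GENCODE M21, per the labels and the file headers: genes and transcripts from reads aligned to transcripts, and transcripts quantified from reads directly. Expected counts were deposited unnormalised, as were the direct tables' estimated counts, per the file headers. The authors scaled TPM over all entries of a table and gave credibility bounds and each transcript's percent of its gene, per the file headers. The aligner and quantifiers are not given in the sources used here.

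TPM was rescaled without spike-ins and entries that name no gene. Counts were rounded and scaled by TMM (edgeR 4.0.16, R 4.3.3), with a prior count of 2 in log2 ratios and a pseudocount of 0.5 between tables. The ratio step was tested on simulated data. Versions were Python 3.11.15, numpy 2.4.6, pandas 2.3.3, scipy 1.17.1, matplotlib 3.10.9 and DESeq2 1.42.0, the last for an alternative scaling. The libraries differed beyond sampling noise, with a chi-square per degree of freedom of 14.2, and were counted as 2.

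Proteins were translated from GENCODE coding sequences. RefSeq promoters were matched by Entrez identifier, on the same strand and within 1000 bases of the annotated start. The stem-loop was searched in annotated transcripts.

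The rule for members used gene names and gene types and no measured value. That rule, the lists and the thresholds were nevertheless chosen with earlier results of these data known. Named were the 15 most abundant members, the highest and lowest of each class and cluster, all of Hist3 and Hist4, those called between libraries, the 5 that differed most between tables each way, those with a second transcript of at least 10%, germ-line members, members at 0 and the 3 highest genes of each list. Alternatives covered scaling, minima, prior count, pseudocount, fold, the direct tables, counts and single libraries.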

Additional observations from a re-analysis of the deposited data

How the results depend on the processing

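The number of detected members, 35, was also 35 in the direct tables, with 30 in common, 46 at 0.5 TPM and 44 at 10 expected counts, but 17 at 5 TPM, and with 1 library alone it was 39 to 42. The share of endogenous TPM on members, 0.0439%, was 0.0422% in the direct tables and 0.0277% by expected counts, and 0.0430% to 0.0449% with either library left out. The number of members 2-fold apart between libraries stayed 0 with size factors of DESeq2 (0.576% of all genes), library size (0.576%) and spike-in totals (0.809%). It was 3 with a minimum mean count of 10 (2.76%) and 9 with no filter (10.1% of all genes), 1 at 1.5-fold (Hist1h2bq, beside 2.83%) and 1 in the direct tables (Hist1h4k, beside 0.566%). The median log2 ratio of members was between -0.06 and -0.04 with the other scalings and prior, but 0.15 with spike-in totals. The number 2-fold apart between tables, 7, was 3 at a minimum of 5 TPM (beside 0.817% of protein-coding genes), 8 with a pseudocount of 0.1 (0.978%), and 8 to 10 with 1 library alone (1.01% to 1.08%). The number of H2A and H2B pairs led by the H2B gene, 7 of 9, was 5 of 9 in the direct tables and 9 of 12 with no minimum, both chosen after seeing the data. Of 9 class and cluster shares, 7 moved by more than the spread between libraries in the direct tables and 9 by expected counts, and the TPM of 41 of 67 members moved so in the direct tables. With only 2 libraries, this spread is itself poorly known. The cause of these shifts was not tested, apart from fewer or more genes passing a minimum. Depth limits the lowest members, since a count of 0 allows up to 3 counts even where reads can be told apart. No difference between members that both have fewer than 10 counts can be read.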
